A study of Mus musculus with 15 samples.

Results

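The receptors for the growth factors that drive blood cell formation were followed across 15 mouse leukaemias. The 7 genes were taken by name, Kit, Flt3, Csf3r, Csf2ra, Il3ra, Il6ra and Epor, and every array probeset annotated to 1 of these symbols and no other was kept. This gave 88 of 229581 probesets, which cover 5 of the 7 genes, out of 16277 named genes on the array. Kit had 22 probesets, Flt3 28, Csf3r 19, Il3ra 11 and Epor 8. Csf2ra and Il6ra had no probeset under this rule and were not analysed here. The samples were spleens with acute promyelocytic leukaemia (APL) from Bl/6 Taconic mice, 1 array per tumour, all in 1 group, and no healthy spleen or other control was analysed here. The labels give no leukaemia-driving allele, age, sex or treatment, and do not say whether each spleen came from a separate mouse, so every p-value measures the spread between these arrays. Of the tumours, 10 carry a 4-digit number in their names and 5 carry a 2-digit number, and the meaning of the numbers is not stated. The readout was probeset intensity from the Affymetrix Mouse Exon 1.0 ST array, which reads each gene through several probesets along its transcript.

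These receptors pass signals from circulating or stromal growth factors into blood precursors. Kit and Flt3 are receptor tyrosine kinases, which phosphorylate themselves and their partners once the ligand joins 2 receptor chains. The receptors for granulocyte colony-stimulating factor (Csf3r), interleukin 3 (Il3ra) and erythropoietin (Epor) lack a kinase of their own and work through bound Jak kinases and STAT transcription factors. Promyelocytes, the cells that pile up in APL, are granulocyte precursors, and Csf3r is the receptor through which granulocyte production is stimulated. Flt3 is a frequent site of activating mutation in human acute leukaemia, which expression arrays such as these do not read.

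A gene's level is the median of its probesets on the log2 intensity scale, given as mean ± SD over 15 tumours. The detection limit was set at 6.41, the 40th percentile of gene means. It was used for a gene's mean, and also for its level in a single tumour. Brightness depends on each probe's binding strength, so levels are compared between tumours for 1 gene and not between genes. Each tumour had 1 array, so neighbouring tumours in any order of levels cannot be told apart by a test. In whole spleen, fewer cells of a type and less RNA per cell cannot be told apart. Arrays had median intensities of 108 to 129, and their gene levels correlated with r between 0.928 and 0.978. Arrays tumor_9509 and tumor_9514 were less like the rest, with r = 0.964 to each other and at most 0.949 to any other array. All 6 primary granule genes of promyelocytes were detected, with a mean level of 10.58 to 11.37 across tumours. With no control tissue to compare, this does not test the tissue label.

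Promoter sequences of 5 genes are printed: Kit, Flt3 and Csf3r, the measured receptors with the largest SDs, the ligand gene Il3, which is high in the tumour with the highest Flt3, and Epor, whose window holds a GATA motif. Each runs from 250 bases before to 50 bases after the RefSeq start site in GRCm38.p6, 5′ to 3′ on the gene's strand, at chr5:75574737-75575036 (plus) for the first of 2 listed Kit starts, chr5:147400440-147400739 (minus) for Flt3, chr4:126024409-126024708 (plus) for Csf3r, chr9:21963527-21963826 (minus) for Epor and chr11:54267230-54267529 (minus) for Il3. Capitals mark GAGGAA, which PU.1 and other Ets factors are known to bind, GATAAG, known for GATA factors, and TGTGGT, known for Runx factors. A match on the other strand is printed in capitals as its reverse complement.
Kit: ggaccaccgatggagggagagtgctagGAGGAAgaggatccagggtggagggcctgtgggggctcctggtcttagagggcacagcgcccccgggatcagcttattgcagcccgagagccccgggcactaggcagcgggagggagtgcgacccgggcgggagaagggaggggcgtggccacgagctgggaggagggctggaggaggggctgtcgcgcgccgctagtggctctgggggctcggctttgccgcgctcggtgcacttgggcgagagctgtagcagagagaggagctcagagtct
Flt3: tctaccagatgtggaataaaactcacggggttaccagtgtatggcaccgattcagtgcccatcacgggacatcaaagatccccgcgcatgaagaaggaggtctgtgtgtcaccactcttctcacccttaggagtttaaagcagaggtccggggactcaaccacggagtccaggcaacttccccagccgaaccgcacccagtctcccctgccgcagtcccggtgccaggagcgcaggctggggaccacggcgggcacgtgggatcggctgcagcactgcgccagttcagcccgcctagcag
Csf3r: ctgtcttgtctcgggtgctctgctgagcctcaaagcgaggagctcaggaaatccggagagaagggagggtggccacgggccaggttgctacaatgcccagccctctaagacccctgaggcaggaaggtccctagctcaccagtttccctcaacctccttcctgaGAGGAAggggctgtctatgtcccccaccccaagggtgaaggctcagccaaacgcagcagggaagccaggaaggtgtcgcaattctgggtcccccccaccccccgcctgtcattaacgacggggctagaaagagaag
Epor: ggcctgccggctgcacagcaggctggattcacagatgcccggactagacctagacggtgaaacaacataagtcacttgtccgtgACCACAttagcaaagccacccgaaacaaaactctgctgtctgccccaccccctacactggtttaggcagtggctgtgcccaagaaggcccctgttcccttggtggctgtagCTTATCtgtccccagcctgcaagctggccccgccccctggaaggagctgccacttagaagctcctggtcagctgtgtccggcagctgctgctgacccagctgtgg
Il3: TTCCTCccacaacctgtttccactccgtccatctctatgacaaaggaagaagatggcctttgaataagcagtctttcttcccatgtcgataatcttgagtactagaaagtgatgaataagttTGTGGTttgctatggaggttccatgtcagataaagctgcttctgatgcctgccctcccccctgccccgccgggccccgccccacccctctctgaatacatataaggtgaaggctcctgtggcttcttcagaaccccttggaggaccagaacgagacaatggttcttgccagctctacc
GAGGAA stood at bases 28 to 33 of the Kit window, 165 to 170 of the Csf3r window and, on the other strand, 1 to 6 of the Il3 window. GATAAG stood on the other strand at bases 196 to 201 of the Epor window. TGTGGT stood at bases 123 to 128 of the Il3 window and, on the other strand, at 85 to 90 of the Epor window. None of the matches overlapped another, and none of these letters stood in the Flt3 window or in the Il3ra and Csf2 windows, which are not printed. Among 32851 RefSeq promoters of this length, 28.3% hold GAGGAA, 7.44% GATAAG and 16.8% TGTGGT on either strand. Matches to GAGGAA and TGTGGT are thus common, and those to GATAAG less so. GC content was 69% for Kit, 61% for Flt3, 60.7% for Csf3r, 59.7% for Epor and 50.7% for Il3, beside a median of 52.7% over all promoters.

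Kit, the receptor for stem cell factor, was above the detection limit in all 15 tumours. Its level was 7.80 at the lowest, in tumor_9514, 8.76 at the median and 9.98 at the highest, in tumor_29. Tumor_9529 came second at 9.67 and tumor_9523 next at 9.22. Kit averaged 8.83 ± 0.55 (SD, n = 15), a 4.53-fold span in intensity between tumor_29 and tumor_9514, and 83% of the 200 genes nearest in level had a smaller SD. The lowest tumour is 1 of the 2 arrays that stood apart, and the next lowest level was 8.02, in tumor_36.

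The probesets of Kit moved together. Each probeset was correlated over 15 tumours with the median of the others, and the median r was 0.914, with 21 of 22 probesets above 0.5. The exception, probeset 4897616, had r = -0.27 and was highest in tumor_9514, where the gene as a whole was lowest. In tumor_29 all 22 probesets stood above their own 15-tumour median, 16 of them at their highest, with a median deviation of 1.11. In tumor_9529, 21 of 22 stood above it and 5 were at their highest. In tumor_9514, 9 of 22 were at their lowest.

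Genes beside Kit on chromosome 5 did not share its high level in tumor_29. In that tumour Kit lay 1.22 above its median on the log2 scale. The 3 nearest named genes on one side were Chic2 (0.11), Gsx2 (-0.20) and Pdgfra (-0.03), and on the other Kdr (0.11), Srd5a3 (-0.04) and Tmem165 (0.00), all as deviations from their own 15-tumour medians. Pdgfra and Kdr, which encode related receptor kinases, were not detected. The median deviation of 622 detected genes on chromosome 5 was 0.09 in this tumour. Here the array's median deviation over all detected genes was first subtracted, which was not done for the single genes.

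Flt3, the receptor that supports early lymphoid, dendritic and myeloid precursors, was below the detection limit in most tumours and high in 1. Its level was 5.68 at the lowest, in tumor_9514, 6.19 at the median and 8.07 at the highest, in tumor_9504. Tumor_9520 followed at 6.79 and tumor_9529 at 6.57, and these 3 tumours alone exceeded the limit of 6.41. The mean was 6.29 ± 0.57 (SD, n = 15), and 97% of the 200 nearest genes had a smaller SD. Tumor_9504 lay 1.28 above the next tumour on the log2 scale, and without it the SD was 0.29. With probesets above the 25th percentile alone, the mean was 6.95, above the limit of 6.41. The limit was not recomputed for that setting, and leaving out dim probesets raises a gene's median. This value therefore cannot decide whether Flt3 is detected on average.

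**Figure D1:**
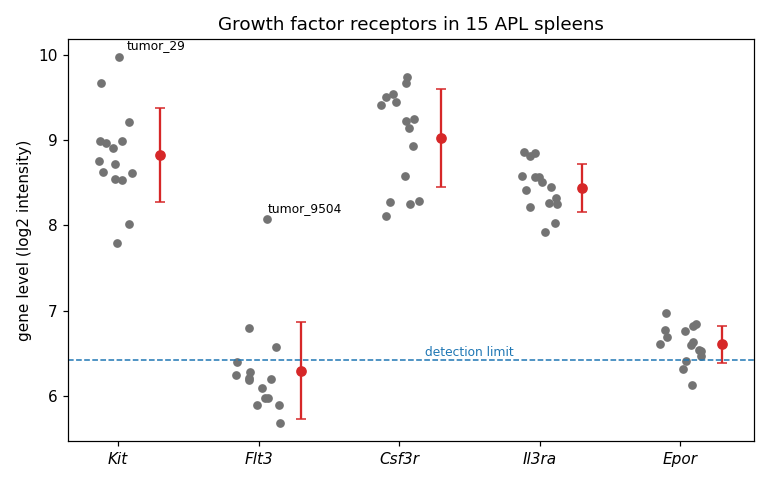
Gene level (log2 intensity) of the 5 measured receptors in 15 APL spleens, with 1 grey point per tumour, the mean and SD in red and the detection limit of 6.41 dashed. Flt3 has 1 tumour at 8.07 and the rest at 6.79 or below, while Kit and Csf3r lie above the limit in every tumour.

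The high Flt3 level was shared by nearly all of its probesets. In tumor_9504, 27 of 28 probesets stood above their 15-tumour median and 26 were at their highest of 15 tumours. Their deviations had a median of 2.07 and ran from -0.03 to 3.99, and 22 exceeded 1. By the same count, 23 of 28 stood above the median in tumor_9520 and 22 in tumor_9529, with median deviations of 0.49 and 0.42, and none was at its highest in either. The median r of a probeset with the others was 0.739 over 15 tumours and 0.410 without tumor_9504. Averaged over the tumours, 12 of 28 probesets lay above the detection limit.

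**Figure D2:**
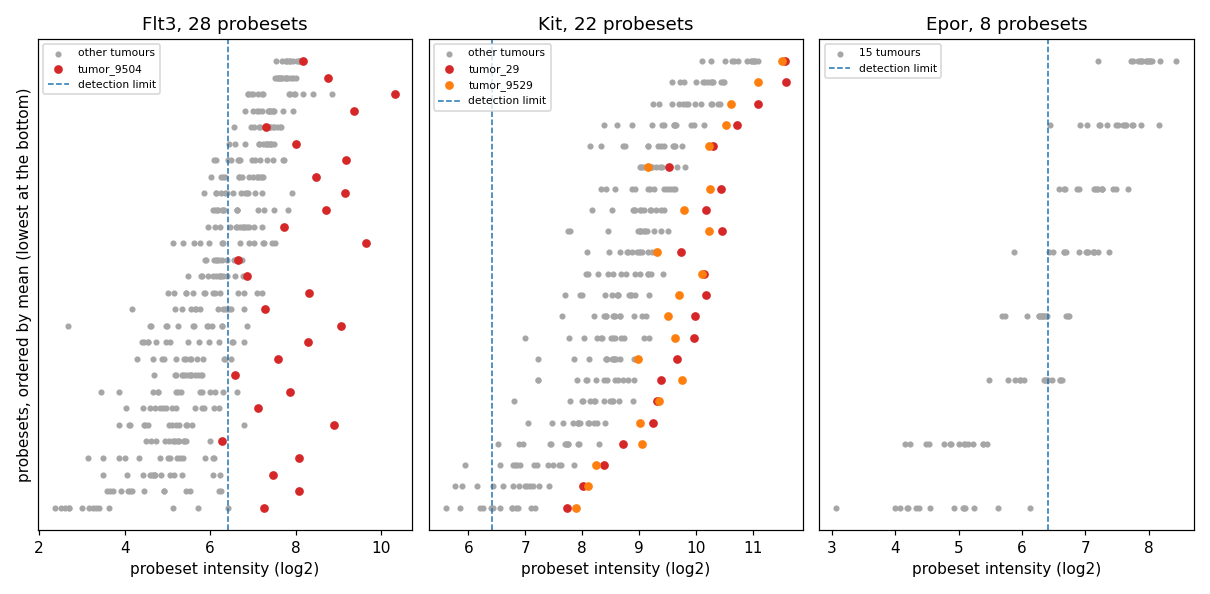
Log2 intensity of each probeset (rows, ordered by mean) of Flt3, Kit and Epor in 15 tumours, with the detection limit of 6.41 dashed. For Flt3, tumor_9504 in red is at the high end of 26 of 28 rows, for Kit, tumor_29 in red is at the high end of 16 of 22, and the 8 rows of Epor show no shared order.

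Pan3, which lies next to Flt3 on chromosome 5 and encodes a part of a messenger RNA deadenylation complex, was also at its highest in tumor_9504, at 9.50, which was 0.59 above its median. Flt1, one gene further and a receptor for vascular endothelial growth factor, was 0.60 above its median, with 3 tumours higher. Pomp, the next, was 0.24 above. On the other side Cdx2 was 0.15 above, Pdx1 0.04 below (-0.04) and Gsx1 0.15 above, against 1.88 for Flt3. The median deviation of the 622 detected chromosome 5 genes was 0.18 in tumor_9504, the highest of 15 tumours. It was taken after subtracting the array's median deviation over all detected genes, unlike the single-gene values. The part of these values in the Flt3 level was not tested.

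Dendritic, progenitor and lymphoid marker lists were set beside this tumour. Of 8 dendritic cell markers 3 were detected on average, and Itgax, Clec9a, Xcr1, Siglech and Zbtb46 were not. In tumor_9504 itself Itgax was above the limit, at 6.75 and second to tumor_9529, and Cd209a was at its highest of 15 tumours, at 6.80. The mean level of the detected ones was 7.40 in tumor_9504, within a range of 6.78 to 7.61 over all tumours. Of 8 stem and progenitor markers 5 were detected, with a mean of 8.49 in tumor_9504 and a range of 8.42 to 9.21. The B cell list had 4 of its 7 measured genes detected and a mean of 7.70 in tumor_9504, where the range was 6.93 to 8.05. The T cell list, with 6 of 7 measured genes detected, had a mean of 7.82 there and a range of 6.65 to 8.0. Tumor_9504 was thus inside the range of the other tumours for each of these lists, and was the lowest of 15 for the primary granule genes, at 10.58. Their part in the Flt3 level was not tested.

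Csf3r, the receptor for granulocyte colony-stimulating factor, was above the limit in every tumour and spanned 3.10-fold. Its level was 8.11 at the lowest, in tumor_9508, 9.22 at the median and 9.74 at the highest, in tumor_31. In order of level, 5 tumours lay between 8.11 and 8.58, namely tumor_9508, tumor_9520, tumor_9514, tumor_9504 and tumor_9509, and the other 10 between 8.94 and 9.74. The mean was 9.03 ± 0.58 (SD, n = 15), and 90% of the 200 nearest genes had a smaller SD. Its 19 probesets moved together (median r 0.920), and the least similar still had r = 0.869. All 19 stood above their median in tumor_9492, tumor_9500 and tumor_31, and none did in the 5 low tumours or in tumor_33.

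Csf3r was compared with 2 lists of neutrophil genes, since its level is known to be high in maturing granulocytes. The score of a list is the mean deviation of its detected genes from their 15-tumour means. With 8 secondary granule genes, which switch on after the promyelocyte stage, Csf3r had Pearson r = 0.47 (permutation p = 0.0773, n = 15) and Spearman rho = 0.49 (permutation p = 0.0687). With 8 mature neutrophil genes it had r = 0.36 (permutation p = 0.189) and rho = 0.44 (permutation p = 0.101). The adjusted p over the 20 relations computed was 0.497 for both values of r and 0.336 for both values of rho, so neither passed.

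Both values of r changed with the tumours included. Without tumor_9508 and tumor_9520, the farthest from the Csf3r median, r was 0.21 with secondary granule genes and 0.05 with mature neutrophil genes. Leaving out the extremes of 1 measure tends to lower r. Without tumor_9509 and tumor_9514, whose arrays stood apart, r was 0.76 (permutation test, adjusted p = 0.0274) and 0.74 (permutation test, adjusted p = 0.0360). In those 2 tumours the mature neutrophil level was high, at 10.14 and 10.37 within a range of 7.13 to 10.68, while Csf3r was low, at 8.58 and 8.27. Leaving out tumours that lie against a relation tends to raise r, so these adjusted p-values do not carry over to all tumours. Among the 10 tumours with 4-digit numbers r was 0.34 and 0.27.

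**Figure D3:**
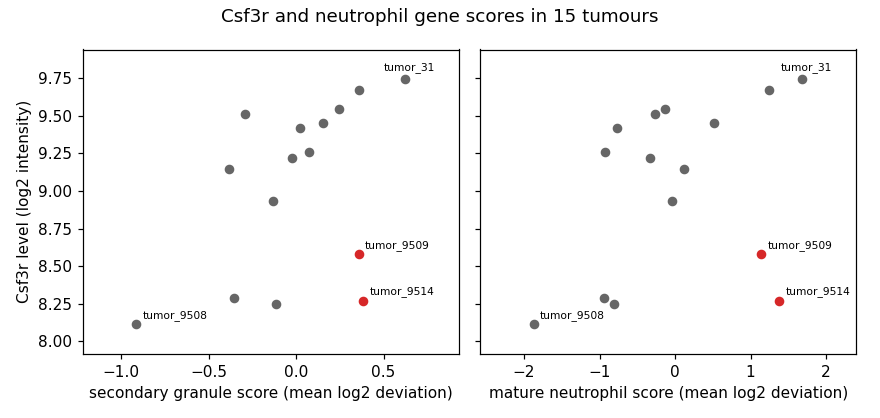
Csf3r level (log2 intensity) against the secondary granule score (left) and the mature neutrophil score (right), both as mean log2 deviation, with 1 point per tumour. The red points are tumor_9509 and tumor_9514, which lie low on Csf3r (8.58 and 8.27) and high on both scores.

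Il3ra, the chain that binds interleukin 3, varied little. Its level was 7.92 at the lowest, in tumor_33, 8.45 at the median and 8.87 at the highest, in tumor_9514, a 1.93-fold span. All 15 tumours were above the limit, and the next highest level was 8.85, in tumor_31. The mean was 8.44 ± 0.28 (SD, n = 15), and 23% of the 200 nearest genes had a smaller SD. Its probesets agreed less than those of Kit or Csf3r, with a median r of 0.432 and 5 of 11 above 0.5, so the order of tumours for this gene is less certain.

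Epor, the erythropoietin receptor, lay near the detection limit. Its level was 6.12 at the lowest, in tumor_9500, 6.60 at the median and 6.97 at the highest, in tumor_9492, with 12 tumours above the limit and 3 below it. The mean was 6.60 ± 0.22 (SD, n = 15), and 49% of the 200 nearest genes had a smaller SD. Its 8 probesets did not move together, with a median r of -0.04, 4 of them below 0 and 1 above 0.5. Only 4 of 8 had a mean above the limit, so differences between tumours in this gene are not backed by its probesets.

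The highest and lowest Epor tumours were also those with the highest and lowest level of red cell genes. The mean of the 4 detected erythroid markers (of 8 measured), Alas2, Slc4a1, Hbb-b1 and Tfrc, was 8.91 in tumor_9492 and 7.67 in tumor_9500. Over 15 tumours Epor and the erythroid score had r = 0.56 (permutation p = 0.0313, adjusted p = 0.313) and rho = 0.47 (permutation p = 0.0811, adjusted p = 0.336). Without these 2 tumours, the farthest from the Epor median, r was 0.18. Leaving out the extremes of 1 measure tends to lower r, so this does not show how far the relation rests on them. With all 15 tumours but only probesets above the 25th percentile, r was 0.19 (permutation test, adjusted p = 0.773). It was 0.66 after centring the arrays and 0.67 after quantile normalization, and did not pass adjustment there either. Klf1, Epb42, Ermap and Rhag were not detected.

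Among the receptors themselves, 10 pairs were compared and none passed after adjustment. The lowest r was that of Flt3 with Il3ra, at -0.55 (permutation p = 0.0253, adjusted p = 0.313), with rho = -0.45 (permutation p = 0.0949, adjusted p = 0.336) and n = 15. It was -0.40 without tumor_9520 and tumor_9504, the farthest from the Flt3 median, and -0.76 among the 10 tumours with 4-digit numbers. The other 9 pairs had r between -0.40 and 0.28. Of the 10 relations with partner chains or marker scores, all but that of Epor had r between -0.37 and 0.47 and none passed; they include Kit and Il3ra with mast cell and basophil genes, Kit and Flt3 with stem and progenitor genes, and Flt3 with dendritic cell genes. The highest Kit and the highest Flt3 were in different tumours: Kit was 8.53 in tumor_9504, where Flt3 was 8.07, and Flt3 was 5.88 in tumor_29, where Kit was 9.98. Tumor_9529 was high in both, second for Kit at 9.67 and 1 of the 3 tumours above the Flt3 limit, at 6.57.

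The shared signalling chains had larger SDs than Il3ra. Csf2rb, the beta chain through which the receptors for interleukin 3, interleukin 5 and granulocyte-macrophage colony-stimulating factor signal, had 21 probesets and a level of 9.39 ± 0.79 (SD, n = 15). It was 7.13 at the lowest, in tumor_9509, 9.58 at the median and 10.07 at the highest, in tumor_33. Tumor_9514 was second lowest at 8.23, and the 13 other tumours lay between 8.96 and 10.07. Csf2rb2, the mouse chain that serves interleukin 3 alone, was 6.12 at the lowest, in tumor_9509, 7.39 at the median and 8.36 at the highest, in tumor_33. Any probeset annotated to both chains was left out, since it cannot tell the 2 similar genes apart. Il3ra had r = -0.37 with Csf2rb (permutation p = 0.185, rho = -0.44, permutation p = 0.100) and r = -0.35 with Csf2rb2 (permutation p = 0.198, rho = -0.30, permutation p = 0.275). After adjustment over the 20 relations, p was 0.497 for both values of r, and 0.336 and 0.636 for rho. Without tumor_9504 and tumor_33, the farthest from the Il3ra median, r was -0.21 with Csf2rb and 0.01 with Csf2rb2. The relation with Csf2rb moved the other way with the scaling, to r = -0.62 after quantile normalization and -0.55 after centring the arrays, and it did not pass adjustment there either. Il6st, the shared chain of the interleukin 6 family, was not detected on average and exceeded the limit in tumor_36 alone, at 7.04, with the other tumours at 6.06 or below.

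Of the 7 ligand genes, 1 was detected on average. Flt3l, which encodes the ligand of Flt3, had 6.39 at the lowest, in tumor_29, 7.50 at the median and 8.12 at the highest, in tumor_9500. Its mean was 7.44 ± 0.57 (SD, n = 15), and tumor_9504, with the highest Flt3, had 7.99. Kitl (stem cell factor), Csf3, Il6 and Epo stayed below the limit in all 15 tumours, with the highest Il6 value, 5.72, in tumor_9523.

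Il3 and Csf2, which encode interleukin 3 and granulocyte-macrophage colony-stimulating factor, were below the detection limit in most tumours and high in a few. They are singled out here after their values were seen. Il3 was 10.36 in tumor_9504, 7.92 in tumor_26 and 7.44 in tumor_9508, and between 4.37 and 6.03 in the other 12, all below the limit. Its 6 probesets agreed (median r 0.952), and all 6 were highest in tumor_9504. Of 16277 named genes, 17 (0.104%) had an SD at least as large as the 1.72 of Il3.

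Csf2 was 8.43 in tumor_9520 and 8.12 in tumor_9495, and between 3.73 and 5.42 in the other 13. Its 5 probesets agreed (median r 0.918) and all were highest in tumor_9520. Its SD of 1.41 was reached by 34 genes (0.209%). The tumours above the limit for Il3 and for Csf2 were different ones, although these genes neighbour each other on chromosome 11. In tumor_9504, Csf2 was 0.39 above its median, Pdlim4 0.36, P4ha2 0.02, Acsl6 0.07, Fnip1 0.00 and Cdc42se2 0.12, against 5.62 for Il3.

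**Figure D4:**
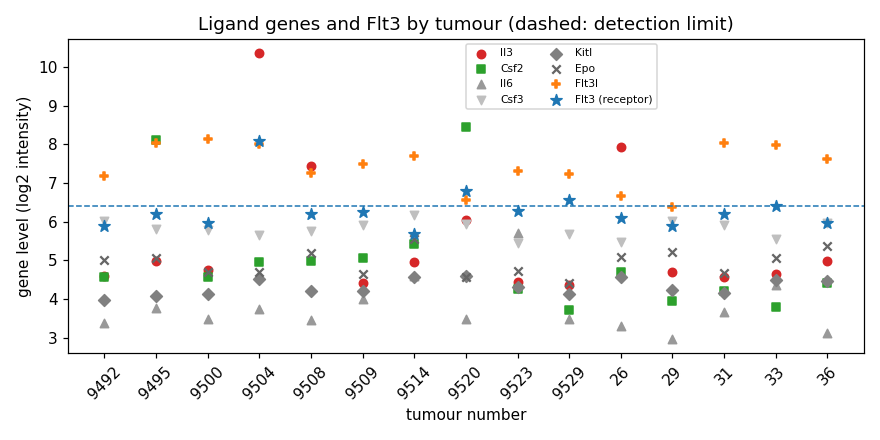
Levels (log2 intensity) of the 7 ligand genes and of the receptor Flt3 in each of 15 tumours, with 4-digit numbers left and the detection limit of 6.41 dashed. Il3 is at 10.36 in tumor_9504, where Flt3 is at 8.07, and Csf2 is at 8.43 in tumor_9520 and 8.12 in tumor_9495.

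Tumor_9504, the tumour with the highest Flt3 and Il3, held 2 of the 18 other growth factor and cytokine receptors measured at their highest. Tumor_31 held Il7r, Ifnar1, Tnfrsf1a and Igf1r at theirs. Il1r1, an interleukin 1 receptor chosen after its values were seen, was 8.17 in tumor_9504, 6.85 in tumor_9495 and 6.85 in tumor_9520. It was at or below 6.31 in the other 12, all under the limit. Csf1r, the receptor of macrophage colony-stimulating factor, was 8.02 in tumor_9504, 6.85 at the median and 6.07 at the lowest, in tumor_9509. The monocyte list, whose 7 measured genes were all detected, had a mean of 7.53 in tumor_9504 within a range of 6.93 to 8.12. Cells known to make interleukin 3, T cells and basophils, were read by their lists. T cell genes were highest in tumor_31, at 8.0, where Il3 was 4.57, and next highest in tumor_9504, at 7.82. The T cell genes of tumor_9504 were mixed. Thy1 was 10.48 (mean 8.91), and Cd3e, Cd3g and Cd5 were also above their means. Cd3d was below its mean, at 7.31 (mean 7.60), as was Cd8a, at 6.44 (mean 6.48). Mast cell and basophil genes (5 of 9 detected) were highest in tumor_9523, at 9.66, where Il3 was 4.45, and stood at 9.05 in tumor_9504. Single genes of that list differed from its mean. Prss34, a basophil protease chosen after its values were seen, was 8.07 in tumor_9504, 8.06 in tumor_9508, 7.46 in tumor_9520 and 7.24 in tumor_26. These are the 4 tumours with the highest Il3, and Prss34 was at or below 7.10 in the others. Of the 4, tumor_9520 had Il3 below the limit, at 6.03. Gene and grouping were both chosen with the values known, so their match is not a test. Mcpt8, another basophil protease, was 11.24 in tumor_9523 and next highest in tumor_9504, at 11.13. Its mean was 10.03, and it was 10.17 in tumor_9508, 9.66 in tumor_9520 and 9.53 in tumor_26. Fcer1a, a chain of the IgE receptor, was highest in tumor_9508, at 6.10, and tumor_9504, at 5.92, both below the limit. It was 5.55 in tumor_9520 and 4.59 in tumor_26, beside a mean of 4.65. Other genes of the list went another way. Hdc, with a mean of 8.59, was below that mean in the 4 tumours with the highest Il3. It was 7.69 in tumor_9504, 8.31 in tumor_9508, 7.45 in tumor_9520 and 8.23 in tumor_26. Its lowest levels were in other tumours, 6.82 in tumor_9509 and 7.11 in tumor_36. Cpa3, with a mean of 10.63, was 10.57 in tumor_9504 and 9.43 in tumor_9520. It was 11.44 in tumor_9508 and 11.02 in tumor_26. The part of these genes in the Il3 level was not tested.

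The kinases and STAT factors that these receptors use were detected in all cases measured, 6 of 8 listed. Jak1 averaged 8.96 ± 0.27 and Stat3 8.56 ± 0.53 (SD, n = 15 each). Jak2, the kinase bound by Epor and the beta chains, was 5.99 at the lowest, in tumor_9509, 7.23 at the median and 7.84 at the highest, in tumor_9504. Stat3 was also lowest in tumor_9509, at 7.42, and next lowest in tumor_9514, at 7.73.

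Of 12 listed adaptors and inhibitors, 11 were measured and 10 detected. Ptpn6, a phosphatase that dampens receptor signalling, averaged 9.70 ± 0.42, and Cbl, a ubiquitin ligase that removes active Kit and Flt3, 8.88 ± 0.39 (SD, n = 15 each). Gab2, an adaptor, averaged 8.04 ± 0.44. Cish, an inhibitor switched on by Stat5, was chosen after its values were seen. It was 6.42 at the lowest, in tumor_9492, 7.04 at the median and 7.80 at the highest, in tumor_9520, with tumor_9504 second at 7.59. Socs2, another inhibitor of the list, was highest in tumor_9495, at 7.23, and lowest in tumor_9508, at 6.24. It was 6.70 in tumor_9520 and 6.44 in tumor_9504, beside a mean of 6.71. Of 20 other growth factor and cytokine receptors listed, 18 were measured and 9 detected, among them Ifngr1 at 10.07 ± 0.40, Il2rg with a median of 10.12 and an SD of 0.44, and Flt1 at 7.31 ± 0.57 (n = 15 each).

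The only split the titles give, tumour numbers of 4 digits against 2, was tested with limma over all 16277 genes. No gene passed at an adjusted p under 0.05 (0 of 16277, 0%), and 468 had an unadjusted p under 0.05 (2.88%). None of the 5 receptors had an unadjusted p under 0.05. Of the 45 measured pathway genes none was called, and 2, Cbl and Tnfrsf1a, had an unadjusted p under 0.05, with differences of -0.43 and -0.38. Csf3r differed most among the receptors, with 8.88 ± 0.64 in 10 tumours with 4-digit numbers and 9.32 ± 0.30 in 5 with 2-digit numbers, a difference of -0.44 (95% interval -1.02 to 0.13). Flt3 was 6.39 ± 0.67 in tumours with 4-digit numbers and 6.11 ± 0.20 in those with 2-digit numbers, a difference of 0.28 (-0.31 to 0.88). Kit differed by -0.15 (-0.74 to 0.44), Il3ra by 0.09 (-0.24 to 0.42) and Epor by -0.08 (-0.35 to 0.19), and the limma adjusted p was 1.00 for each of the 5. Differences as large as the ends of these intervals, -1.02 for Csf3r and 0.88 for Flt3, were within what these arrays allow.

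Genes whose levels followed a receptor over the 15 tumours were ranked by Pearson r among 9448 detected genes with at least 3 probesets, as a description. All values come from the same arrays and share their normalization. The closest to Kit were Ice2 (r = 0.90), Cerk (0.89) and U2surp (0.89), and without tumor_29 they had 0.88, 0.89 and 0.84. The closest to Csf3r were Lcp1 (0.92), an actin-bundling protein of white cells, Pde2a (0.90) and Gnai2 (0.89), with 0.92, 0.89 and 0.88 without tumor_31. Those of Flt3 depended on 1 tumour: Acta2, Arrdc4 and Pex7 had r = 0.85, 0.81 and 0.78, and 0.50, 0.34 and 0.62 without tumor_9504. Il3ra was followed by Rala (0.82), Igsf8 (0.82) and Naglu (0.80), and Epor by Cux2 (0.85), Trim52 (0.77) and Golga7 (0.75), although the weak agreement of the Epor probesets limits the last 3.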

How the data were processed

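Total RNA of 15 spleens was amplified, biotin-labelled and hybridised, 1 array per tumour, per the labels' protocols. The authors deposited 1 linear intensity per probeset and array. RMA (background correction, normalization between arrays and probe summary) and mm9 as genome build are given, with no version, per the submitters' processing notes. Scanner files were not analysed here. Intensities, from 2.38 to 19380.5, were log2 transformed, with no pseudocount. The number of arrays limits the precision.

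Gene names came from the platform annotation: 208397 probesets had 1 symbol and were used, 3965 had several and 17219 none. Of 16299 symbols, 14132 stood as current names in the RefSeq table of GRCm38.p6, 2124 were updated from it and 43 stayed as given, which left 16277 genes. That table served only for names, chromosomes and gene order. A gene's level is the median of its probesets.

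The members, gene lists and tests were chosen with earlier results of these data known. Named were the receptors, per pathway list those past the numbering test and, among detected genes, the top 2 by mean and the top 2 by SD, the 3 genes most like each receptor, the 3 nearest genes on each side of Kit and Flt3, and every relation with a raw p under 0.05. Il3, Csf2, Il1r1 and other genes outside this rule were named after their values were seen. Of 35 planned relations 20 could be computed, since Csf2ra and Il6ra had no probeset. Each had 2-sided permutation tests of 100000 resamples for r and rho, with Benjamini-Hochberg adjustment over the 20. The numbering split was fitted with limma 3.58.1 in R 4.3.3, Benjamini-Hochberg adjusted over all genes. Python 3.11.15, numpy 2.4.6, pandas 2.3.3 and scipy 1.17.1 did the rest. In simulated data for the numbering split (16277 genes), limma called 80% of 100 planted shifts of 1 on the log2 scale. It called 99% of 100 planted shifts of 2, with 10 other calls. The permutation test found 1 of 1 planted relation and 0 of 19 others. That relation was planted strong against its noise, so finding it does not show the power for relations of the size seen here. Alternatives varied the probeset summary, the probesets used, the scaling, the gene filter, the variance model and the tumours included.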

Additional observations from a re-analysis of the deposited data

How the results depend on the processing

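Across 11 alternative settings, 30 values were recomputed 194 times. Of these, 182 kept their direction and their side of the threshold or moved by less than the spread. With only probesets above the 25th percentile, the mean level was 6.95 for Flt3 and 6.94 for Epor. The detection limit of 6.41 was not recomputed for this setting, so these means do not change a detection call. With the mean over probesets in place of the median, Il3ra averaged 8.89 with an SD of 0.15. Without tumor_9504, an alternative chosen after seeing the data, the SD of Flt3 was 0.29 and its probeset agreement 0.410. The probeset agreement of Csf3r was 0.887 after quantile normalization and 0.987 between odd and even probesets. Without tumor_9509 and tumor_9514, 2 relations passed the adjusted threshold by the permutation test in place of 0: Csf3r with secondary granule genes (r = 0.76, adjusted p = 0.0274) and with mature neutrophil genes (r = 0.74, adjusted p = 0.0360). The numbering difference of Kit turned to 0.0024 without these tumours. Of the 16 other relations, 10 changed sign under at least 1 of 8 settings. The cause of these changes was not tested. Centring the arrays or quantile normalization moved the median of all genes by 0.01, and the mean over probesets by -0.06. The numbering test called 0 genes under every setting run, with 384 to 526 of 16277 at an unadjusted p under 0.05 where all genes were tested. No paired analysis was possible because all tumours form 1 group. Each tumour had 1 array, most Flt3, Il3 and Csf2 values lay below the detection limit, and Epor lay near it, so small differences there were not detectable.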
